A study of Mus musculus with 6 samples.

Results

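The chemokines examined here were Ccl2, Ccl5, Ccl7, Ccl8, Cxcl1, Cxcl5, Cxcl10, Cxcl12, Cxcl14 and Cx3cl1, secreted or membrane-tethered attractants of blood cells that osteoblasts (OBs) or their neighbours in bone can make. Every probe set whose annotated gene symbol names 1 of these 10 genes was taken, which gave 18 of the 45037 probe sets tested and all 10 genes of the 18193 genes that have a probe set of their own. Each of the 18 probe sets is annotated to a single gene. RNA came from 3 cultures of MC3T3-E1 subclone 4, a mouse calvarial pre-osteoblastic line, given 50 µg of ascorbic acid (AA) per ml for 5 days, and from 3 untreated control cultures of the same line kept for the same 5 days. Both were grown with fetal bovine serum in 6-well plates, with 1 Affymetrix mouse array for each RNA. AA is the cofactor that lets these cells hydroxylate procollagen and lay down a collagen matrix, so the comparison asks how chemokine transcripts differ between pre-osteoblasts given AA and those kept without it. The cells are a single clonal line cultured alone, without the blood cells on which the receptors of most of these ligands are best known.

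Chemokines bind G protein-coupled receptors and draw cells along a gradient. They are grouped by the spacing of the cysteines near the amino end into CC, CXC and CX3C ligands. CC ligands act chiefly on monocytes and lymphocytes. The CXC ligands Cxcl1 and Cxcl5 act on neutrophils. In bone, Cxcl12 from stromal and osteoblast-lineage cells holds blood stem cells and B cell precursors in the marrow through the receptor Cxcr4, and Ccl2 recruits the monocytes from which osteoclasts form.

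The signals are linear values made with MAS5, 1 per probe set and array, and the mean of each array without its outer 2% at each end was 150 on every array. After quantile normalization of the log2 values, a limma model held the condition and, as a block, the replicate number, and p-values were adjusted over all 45037 probe sets by Benjamini-Hochberg, with 0.05 as the threshold. Signals are printed as deposited, while log2 ratios (log2 fold changes), AA over control, are from the normalized values, and a log2 ratio of 0 means no difference. The array median signal ran from 16.2 to 16.9 on the AA arrays and from 14.9 to 17.7 on the control arrays. A probe set is called dim below when its mean log2 signal lay under the median of all probe sets, 3.93, since the table holds no detection calls. As a measure of RNA integrity, the actin control probe set at the 3' end read over the one at the 5' end was 1.35 to 1.45 on the 3 AA arrays and 1.39 to 1.79 on the control arrays, the highest on control replicate 3. The sources describe triplicate wells as well as triplicate experiments, so the p-values may measure only the spread between wells. The osteoblast label was checked against its markers. Col1a1, Col1a2 and Sparc were among the brightest probe sets. Of 10 osteoblast markers measured 4 rose in AA cultures (Alpl, Ibsp, Pth1r and Ifitm5) and none fell. Among these 10, Dmp1 and Phex were dim. Runx2, Bglap, Bglap2 and Spp1 had no probe set of their own and were left out. By brightest probe set 4.06% of 18193 genes rose and 3.83% fell. Without the block, Pth1r did not pass (adjusted p = 0.118 by limma).

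Of the 18 chemokine probe sets, 2 were lower and 1 was higher in AA cultures at an adjusted p below 0.05 in the limma fit, while 15 did not pass. That makes 3 of 18 in either direction, where 5.2% of all probe sets passed. Those that were lower belong to Cxcl12 and Cxcl1, and the one that was higher to Cxcl1 as well. Over all probe sets 2.5% were lower and 2.71% were higher at the same threshold, against 11.1% and 5.56% of the 18, which is 2 probe sets and 1. Only 7 of the 18 lay above the median signal, where 4.83% of all probe sets were lower and 5.23% were higher. Both members in the upper quartile of signal were lower, as were 7.44% of all probe sets there. A total of 12 of the 18 had a lower mean in AA (66.7%, against 50.8% of all probe sets), and the median log2 ratio was -0.68 over the 18 and -0.01 over all probe sets. The deposited signals did not overlap between groups for 4 probe sets that were lower (22.2%, against 11.8% of all probe sets) and 1 that was higher (5.56%, against 11%). At an unadjusted p under 0.05, 6 were lower (33.3%, against 9.41% of all probe sets) and 1 was higher (5.56%, against 8.58%). The members were chosen with earlier results of these data known, so these shares describe the 18 probe sets and are no test of them. These arrays read whole cultures, so fewer cells that make a chemokine and less of its RNA per cell cannot be told apart.

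**Figure D1:**
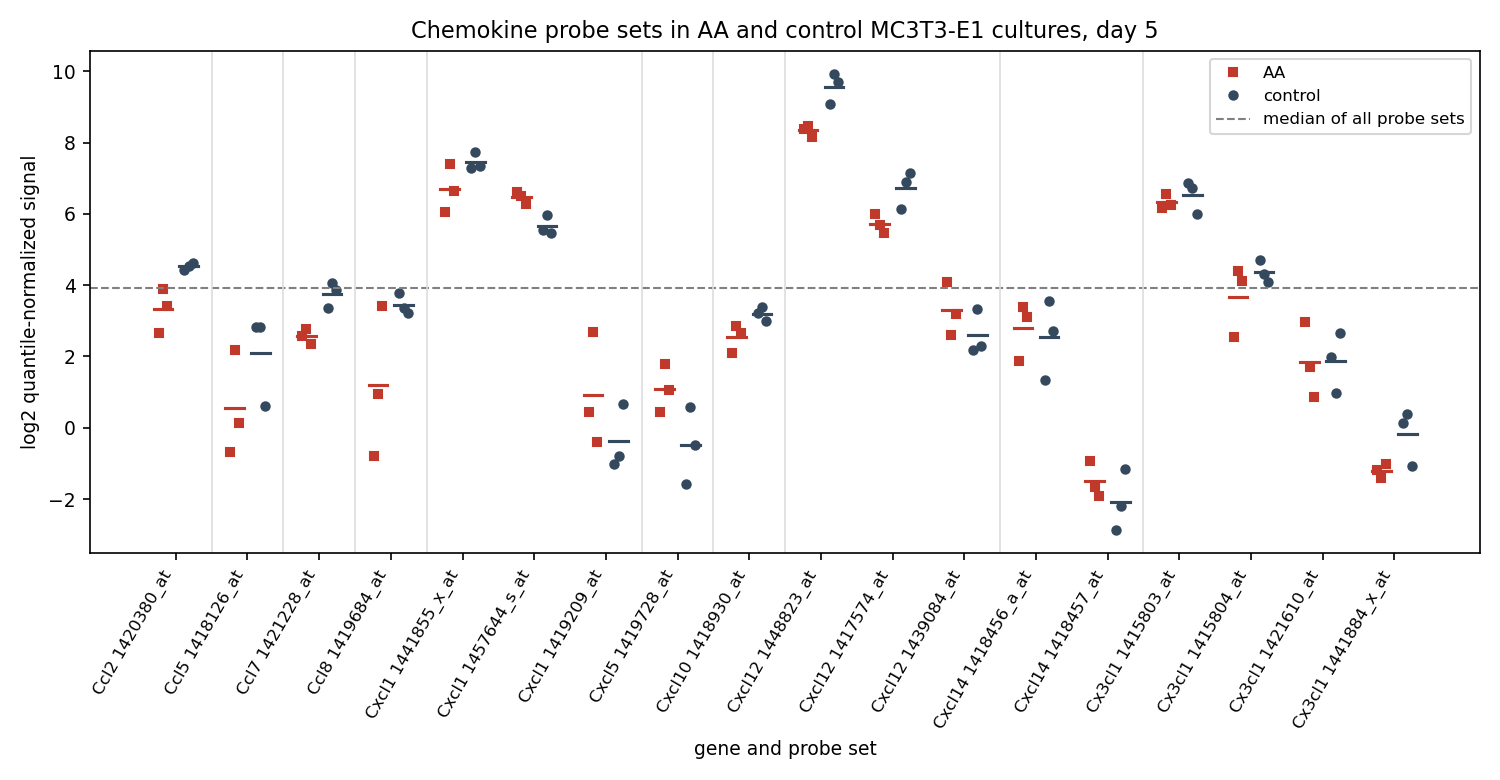
Log2 quantile-normalized signal of the 18 chemokine probe sets, with red squares for the 3 AA arrays, dark circles for the 3 control arrays, short lines for group means and a dashed line at the median of all probe sets. The AA squares of both bright Cxcl12 probe sets and of Ccl2, Ccl7 and Cxcl10 lie under their controls without overlap on this scale. Means of 11 of the 18 probe sets lie under the dashed line of 3.93.

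Cxcl12, the ligand of Cxcr4 and of the scavenger receptor Ackr3, had the clearest change. The gene is read by 3 probe sets, and 300 bases around its annotated start are shown because it is the member whose brightest probe set moved furthest beyond its error. The stretch runs from 250 bases before the start to 50 after it (RefSeq, GRCm38.p6, chr6:117168285-117168584, plus strand), and capitals mark GC boxes, GGGCGG read on either strand.
Cxcl12: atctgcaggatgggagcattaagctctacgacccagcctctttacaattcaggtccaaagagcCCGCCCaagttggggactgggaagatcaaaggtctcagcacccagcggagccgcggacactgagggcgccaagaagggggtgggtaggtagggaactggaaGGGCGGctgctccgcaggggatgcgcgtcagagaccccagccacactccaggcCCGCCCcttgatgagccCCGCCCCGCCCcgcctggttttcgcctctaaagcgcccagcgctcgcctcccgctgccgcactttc
The Cxcl12 stretch held 5 GC boxes. Of the other members with a stretch at hand, Cxcl14 held 3, Cx3cl1 held 1, and Ccl8, Cxcl1 and Cxcl10 held 0. GC boxes stood in 35.7% of 32851 promoter stretches of this length. No match to the consensus κB motif bound by NF-κB was found in the Cxcl12 letters.

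The brightest Cxcl12 probe set, 1448823_at, had signals of 328, 346 and 289 in AA replicates 1, 2 and 3, against 546, 971 and 831 in control replicates 1, 2 and 3. Each AA culture lay under the lowest control culture, and the AA cultures lay close together while the controls spread. The means were 321 ± 29.1 in AA cultures and 783 ± 217 in control cultures (SD, n = 3 each), and the log2 ratio was -1.23 (standard error, SE, 0.16, 95% confidence interval, CI, -1.59 to -0.87, adjusted p = 0.0042 by limma). Thus Cxcl12 mRNA by this probe set was at 0.427 of its control level in AA cultures.

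The Cxcl12 probe set 1417574_at had signals of 62.6, 52.0 and 44.0 in AA cultures, against 70.1, 124 and 141 in control cultures. Again no AA culture reached the lowest control culture, control replicate 1. Its log2 ratio was -1.02 (SE 0.27, 95% CI -1.63 to -0.41), and it did not pass (adjusted p = 0.0723 by limma). After median centring in place of quantile normalization it was -1.09 and passed (adjusted p = 0.0181), which made 3 chemokine probe sets lower. Without replicate 1 the value was -1.46 (adjusted p = 0.00193 by limma), and without replicate 3 it was -0.68 (adjusted p = 0.174). The remaining Cxcl12 probe set, 1439084_at, was dim, with signals of 17.4, 6.38 and 8.94 in AA cultures, against 4.27, 11.1 and 4.53 in control cultures. Its groups overlapped and its log2 ratio was 0.68 (SE 0.60, adjusted p = 0.630 by limma), so 2 of the 3 Cxcl12 probe sets were lower in AA by their means, of which 1 passed. Averaged over its 3 probe sets, Cxcl12 had a log2 ratio of -0.52 (adjusted p = 0.378 by limma).

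The fall of the brightest Cxcl12 probe set stood in every fit that left out arrays: its log2 ratio ran from -1.50 to -1.04 and its adjusted p from 4.02e-05 to 0.0387 over 9 such limma fits. Without control replicate 3, the array with the highest actin ratio, and without the block, it was -1.17 (adjusted p = 0.0331 by limma). When 1 prior variance served all probe sets it did not pass (adjusted p = 0.388), nor did any probe set of the array. The genes whose brightest probe set followed it most closely over the 6 arrays were Ajuba (Pearson's r = 0.996), Snx19 (r = 0.996) and Zfp445 (r = 0.995), of 10818 genes compared. Since 155 genes had an r above 0.95 with it over only 6 points, and the 6 arrays hold the group difference, this is a description of likeness alone.

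Cxcl1, a neutrophil attractant, was lower in AA on 1 of its 3 probe sets and higher on another. Its promoter stretch (RefSeq, GRCm38.p6, chr5:90890995-90891294, plus strand) and that of Cxcl10 (chr5:92348840-92349139, minus strand) are shown because they were the members with a match to the consensus κB motif, and capitals mark these matches and, in Cxcl10, also the interferon-stimulated response element, GAAA followed after any 2 bases by another GAAA.
Cxcl1: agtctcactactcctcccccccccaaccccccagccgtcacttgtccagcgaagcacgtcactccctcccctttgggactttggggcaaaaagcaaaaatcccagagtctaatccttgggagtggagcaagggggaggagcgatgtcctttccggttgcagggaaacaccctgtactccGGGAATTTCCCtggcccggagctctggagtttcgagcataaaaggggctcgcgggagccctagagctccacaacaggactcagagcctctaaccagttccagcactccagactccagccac
Cxcl10: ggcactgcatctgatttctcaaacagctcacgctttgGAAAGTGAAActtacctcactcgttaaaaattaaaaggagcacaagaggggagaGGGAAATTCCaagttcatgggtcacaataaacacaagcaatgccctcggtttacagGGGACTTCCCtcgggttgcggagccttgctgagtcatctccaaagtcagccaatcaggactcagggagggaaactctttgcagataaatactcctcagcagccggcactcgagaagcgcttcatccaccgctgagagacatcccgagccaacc
Cxcl1 held 2 κB matches that overlap in 1 run of capitals, and Cxcl10 held 2 separate κB matches downstream of 1 response element. Of all 32851 stretches, searched on both strands for the 10-base κB consensus, 4.51% held the κB motif and 3.44% the response element. Stretches of 6 of the 10 members were at hand. The other 4 with a sequence were Ccl8, Cxcl12, Cxcl14 and Cx3cl1, and Cxcl14 held 1 response element. A match names letters in a window and not a site in use.

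The Cxcl1 probe set 1441855_x_at had signals of 65.7, 167 and 101 in AA replicates 1, 2 and 3, against 158, 217 and 163 in control cultures. AA replicate 2 lay within the control range, so the groups overlapped, although each AA culture lay under the control of its own number. The log2 ratio was -0.75 (SE 0.17, adjusted p = 0.0429 by limma). Without the replicate block it did not pass (adjusted p = 0.208), nor without replicate 1 (adjusted p = 0.0961) or with 50 added to every signal (adjusted p = 0.0839).

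The Cxcl1 probe set 1457644_s_at moved the other way. Its signals were 97.6, 90.3 and 77.7 in AA cultures, against 45.7, 64.9 and 42.9 in control cultures, with no overlap. The log2 ratio was 0.81 (SE 0.17, adjusted p = 0.0302 by limma), and it also passed without the replicate block (adjusted p = 0.0365). It did not pass with 50 added to every signal (adjusted p = 0.0695), without replicate 1 (adjusted p = 0.0992) or without replicate 2 (adjusted p = 0.0858). Of 9 fits that left out arrays, it passed in 2 and 1441855_x_at in 3. Of the 6 fits without the block that left out 1 array, 1457644_s_at passed without control replicate 2 alone (adjusted p = 0.0427) and 1441855_x_at without AA replicate 2 alone (adjusted p = 0.0496). The third Cxcl1 probe set, 1419209_at, was dim, with signals of 1.44, 6.76 and 0.734 in AA cultures, against 0.452, 0.665 and 1.43 in control cultures, and a log2 ratio of 1.29 (SE 1.05, adjusted p = 0.599). By the maker's naming, the letter x marks probes shared with unrelated sequences and the letter s probes shared by several transcripts. The annotation gives a source sequence for 1419209_at alone of the 3. Closest to 1441855_x_at over the 6 arrays were Tnfrsf22 (r = 0.991), E130307A14Rik (r = 0.985) and Cul7 (r = 0.983), and closest to 1457644_s_at were Rabep2 (r = 0.998), Ift43 (r = 0.993) and Ccnyl1 (r = 0.987). Thus the direction of Cxcl1 depends on the probe set, and the mean of the 3 gave a log2 ratio of 0.45 (adjusted p = 0.541).

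**Figure D2:**
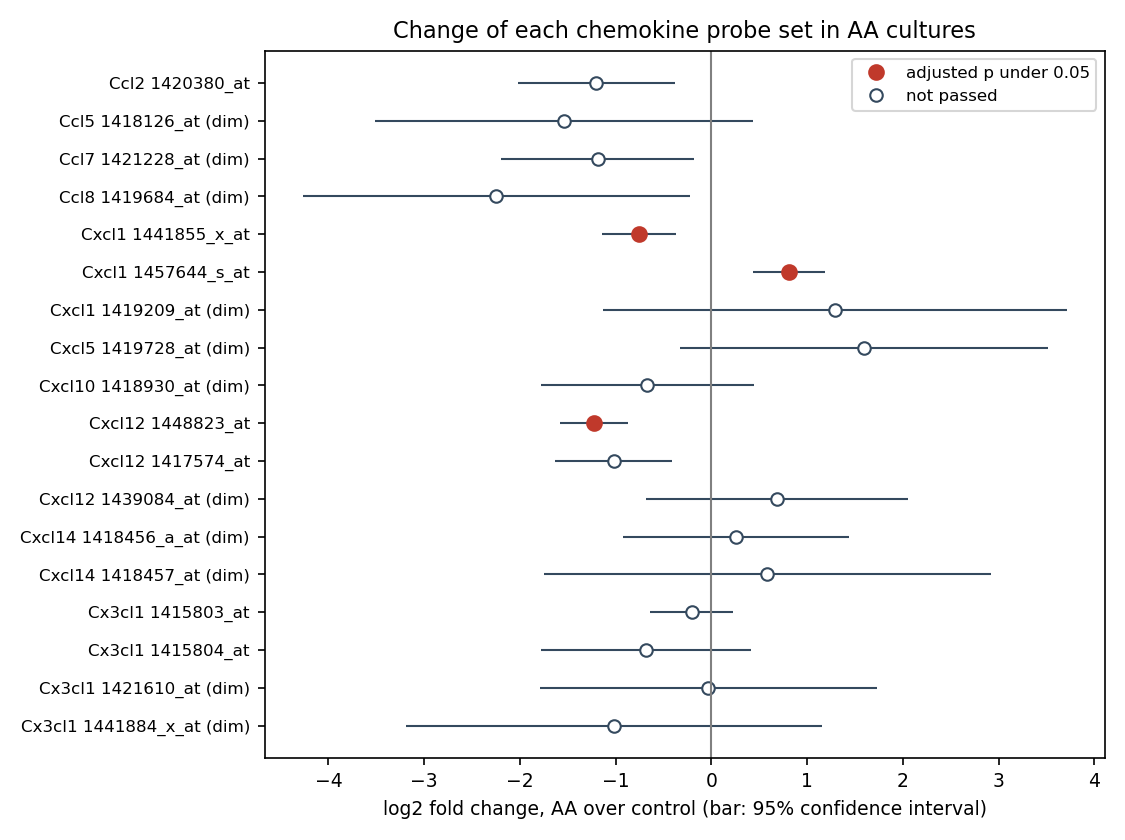
Log2 ratio of AA over control for each chemokine probe set, with its 95% CI by limma as a bar. Filled points passed an adjusted p of 0.05, and dim marks probe sets under the median signal. The 3 filled points are Cxcl12 1448823_at at -1.23 and the Cxcl1 probe sets 1441855_x_at at -0.75 and 1457644_s_at at 0.81.

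None of the 4 CC ligands passed, and all 4 had lower means in AA cultures. Ccl2, which attracts monocytes through Ccr2, had signals of 6.58, 15.7 and 10.7 in AA cultures, against 20.1, 25.2 and 23.6 in control cultures. The groups did not overlap and the log2 ratio was -1.20 (SE 0.36, 95% CI -2.03 to -0.38), with an unadjusted p of 0.00953 and an adjusted p of 0.109 by limma. Its mean log2 signal of 3.94 lay at the median of all probe sets. When only probe sets above that median were tested, the adjusted p was 0.0428, and with 50 added to every signal the log2 ratio was -0.27 (adjusted p = 0.0993).

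Ccl7, another monocyte attractant that uses Ccr2, had signals of 6.17, 7.23 and 4.98 in AA cultures, against 9.38, 18.2 and 13.5 in control cultures. These groups did not overlap either, and the log2 ratio was -1.19 (SE 0.44, adjusted p = 0.198 by limma). Ccl8, which in the mouse acts on Ccr8, had signals of 0.620, 2.04 and 10.6 in AA cultures, against 12.6, 11.2 and 8.58 in control cultures. AA replicate 3 lay inside the control range and the other AA cultures far under it, and the log2 ratio of -2.25 had a wide interval (-4.27 to -0.23, adjusted p = 0.224). Ccl5, or RANTES, which draws T cells and monocytes, had signals of 0.671, 4.76 and 1.04 in AA cultures, against 6.57, 7.80 and 1.38 in control cultures, with a log2 ratio of -1.54 (SE 0.86, adjusted p = 0.409). Over the 9 fits that left out arrays none of these passed, and their log2 ratios kept their direction but not their size. They ran from -2.36 to -0.56 for Ccl5, the smallest without replicate 1, and from -3.47 without replicate 3 to -1.09 without replicate 1 for Ccl8, while Ccl7 ran from -1.39 to -1.03. The probe sets of Ccl5, Ccl7 and Ccl8 were dim.

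By RefSeq's gene order on chromosome 11, Ccl2, Ccl7, Ccl11, Ccl12, Ccl8 and Ccl1 follow each other with no other coding gene between them. The 3 genes of this run that are not members, all dim, had log2 ratios of -0.39 for the eosinophil attractant Ccl11, 0.91 for Ccl12 and -0.63 for Ccl1, with adjusted p of 0.876, 0.770 and 0.828 by limma. Thus the run as a whole had no gene that passed, and its means did not all point the same way.

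Among the remaining CXC ligands none passed. Cxcl5, a neutrophil attractant whose gene lies in the same chromosome 5 run as Cxcl1, had signals of 1.44, 3.60 and 2.01 in AA cultures, against 0.298, 1.66 and 0.642 in control cultures (log2 ratio 1.59, SE 0.84, adjusted p = 0.376 by limma). Each AA culture lay above the control of its own number, yet the groups overlapped and every signal was far under the array medians. Cxcl10, an interferon-induced ligand of Cxcr3 on T cells, had signals of 4.44, 7.56 and 6.15 in AA cultures, against 8.56, 11.7 and 7.37 in control cultures (log2 ratio -0.67, SE 0.48, adjusted p = 0.546). Only AA replicate 2 reached the control range in the deposited signals, and after quantile normalization the groups did not overlap. Cxcl14, made by many epithelia and fibroblasts, was dim on both probe sets. Its brighter probe set had signals of 3.83, 11.0 and 8.48 in AA cultures, against 2.38, 12.9 and 6.09 in control cultures, which lie over each other (log2 ratio 0.26, 95% CI -0.93 to 1.44, adjusted p = 0.862). That interval holds both a fall and a rise of more than 1.5-fold. The other Cxcl14 probe set, 1418457_at, had signals of 0.558, 0.334 and 0.259 in AA cultures, against 0.128, 0.244 and 0.400 in control cultures (log2 ratio 0.58, adjusted p = 0.838). Over the 9 fits that left out arrays the direction of both turned, with log2 ratios of -0.34 to 0.76 for the brighter and -0.10 to 1.25 for the other.

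Cx3cl1, or fractalkine, which is made as a membrane-tethered ligand of Cx3cr1 and shed by proteases, was read by 4 probe sets, and none passed. The brightest, 1415803_at, had signals of 70.4, 93.6 and 76.9 in AA cultures, against 117, 110 and 62.5 in control cultures. Control replicate 3 lay under all AA cultures while the other controls lay above them, and the log2 ratio was -0.21 (SE 0.19, 95% CI -0.64 to 0.23, adjusted p = 0.651 by limma). The next brightest, 1415804_at, had signals of 6.04, 21.7 and 17.3 in AA cultures, against 24.6, 21.5 and 15.9 in control cultures, with a log2 ratio of -0.69 (adjusted p = 0.528). The dim probe sets had log2 ratios of -0.03 and -1.01 with SEs of 0.77 and 0.95. Without replicate 1 both of the brighter probe sets turned direction, 1415803_at to 0.04 (adjusted p = 0.954) and 1415804_at to 0.05 (adjusted p = 0.973). Without replicate 3 the dim 1421610_at turned to 0.85 (adjusted p = 0.713). Thus no Cx3cl1 probe set separated the groups.

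The receptors for these ligands were mostly dim. None of the 16 measured chemokine receptors lay above the median signal, and 1 was lower in AA and none was higher at an adjusted p below 0.05 in the limma fit, where 3.83% and 4.06% of 18193 genes by their brightest probe set were lower and higher. The one was Ccr1, a receptor of Ccl5 and Ccl7, with signals of 0.218, 0.211 and 0.361 in AA cultures, against 5.95, 2.61 and 5.19 in control cultures (log2 ratio -4.15, adjusted p = 0.0339). All 6 values lay far under the array medians, the other Ccr1 probe set had a log2 ratio of 1.56 (adjusted p = 0.476), and with 50 added to every signal the first had -0.12 (adjusted p = 0.114). Without replicate 1, 2 or 3 it did not pass (adjusted p = 0.121, 0.0973 and 0.0823). Cxcr4, the signalling receptor of Cxcl12, had signals of 0.196, 5.02 and 0.758 in AA cultures, against 3.97, 4.21 and 2.38 in control cultures, which overlap (adjusted p = 0.374). Ccr2 had an adjusted p of 0.561 and Cx3cr1 one of 0.353, both dim.

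The atypical receptors, which bind and clear chemokines without signalling through G proteins, held the largest rise that passed among the chemokine ligands and receptors named here. Ackr4, which clears Ccl19, Ccl21 and Ccl25, had signals of 396, 203 and 236 on its brightest probe set in AA cultures, against 80.5, 69.4 and 48.6 in control cultures. Every AA culture lay above every control culture, and the log2 ratio was 2.06 (SE 0.16, adjusted p = 0.000549 by limma). It passed in all 9 fits that left out arrays (adjusted p of 0.000169 to 0.0222). The other 2 Ackr4 probe sets did not pass, at -0.48 and -0.34 (adjusted p = 0.374 and 0.357). They were not dim, at percentiles 68.3 and 67.2 of signal against 75.1 for the brightest, so the direction of Ackr4 depends on the probe set. Ccl25, 1 of the ligands Ackr4 clears, had a log2 ratio of -0.50 (adjusted p = 0.193). By their brightest probe sets, 1 of the 5 atypical receptors rose and none fell.

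Ackr3, the scavenger of Cxcl12, was chosen for description after its values were seen. It had signals of 27.9, 12.0 and 12.7 in AA cultures, against 34.4, 80.7 and 51.9 in control cultures, with no overlap. Its log2 ratio was -1.72 (SE 0.43, adjusted p = 0.0602 by limma), and it passed with no block (adjusted p = 0.0426). It passed in 3 of the 9 fits that left out arrays, with an adjusted p of 0.00193 without replicate 1 and 0.260 without replicate 2. With 50 added to every signal it was -0.63 (adjusted p = 0.133).

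Of 25 other chemokine ligands measured, none passed in either direction by limma, and at an unadjusted p under 0.05 1 was lower (Ccl25) and none higher. Their log2 ratios ran from -1.06 to 1.12 with a median of -0.33, and 5 of the 25 lay above the median signal. By their brightest probe sets the 10 members had a median of -0.97. Members and lists were chosen with earlier results of these data known, so the medians are a description alone. The plot of the lists sets these beside each other.

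**Figure D3:**
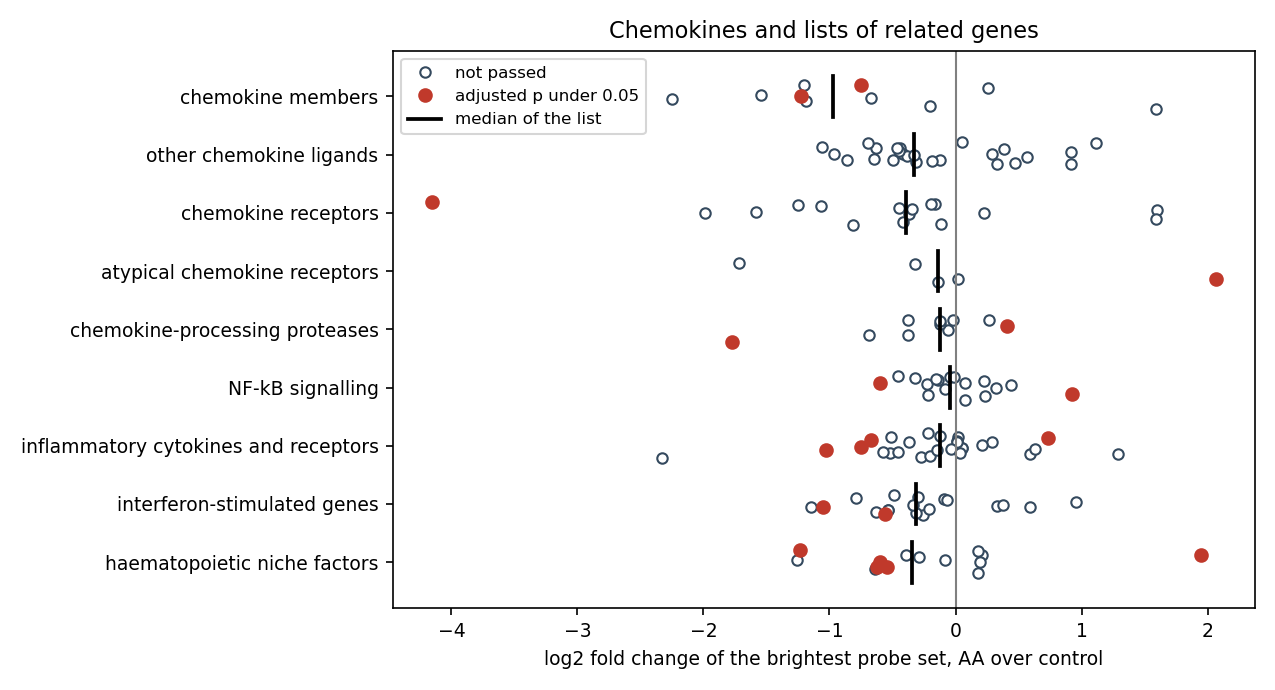
Log2 ratio of AA over control for the brightest probe set of each gene, for the 10 chemokine members and 8 lists of related genes. Filled points passed an adjusted p of 0.05 and a vertical bar marks the median of each list, -0.97 for the members and between -0.39 and -0.04 for the other lists.

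The lists below begin with genes that act upstream of chemokine expression. Their counts stand beside the 4.06% of 18193 genes that were higher and the 3.83% that were lower by their brightest probe set. NF-κB is the inflammatory transcription factor held in check by inhibitor proteins until the IKK kinase complex releases it. Of 17 genes of NF-κB signalling, 1 rose and 1 fell at an adjusted p below 0.05 in the limma fit, with a median log2 ratio of -0.04. Birc3, an NF-κB target that ubiquitinates signalling proteins, had signals of 196, 225 and 217 in AA cultures, against 112, 86.6 and 154 in control cultures (log2 ratio 0.92, adjusted p = 0.0222), and passed in 3 of the 9 fits that left out arrays but not with 50 added to every signal (adjusted p = 0.0590). Ikbkg, the regulatory subunit of IKK, had signals of 170, 163 and 147 in AA cultures, against 270, 239 and 237 in control cultures (log2 ratio -0.60, adjusted p = 0.0138), and passed in 5 of these 9 fits. Thus the 2 calls of this list ran in opposite directions.

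Of 27 inflammatory cytokines and receptors, 3 fell and 1 rose. Csf1, the growth factor of monocytes and osteoclast precursors, had signals of 258, 278 and 295 in AA cultures, against 512, 622 and 604 in control cultures, a log2 ratio of -1.03 (SE 0.09, adjusted p = 0.000785 by limma), and 2 of its 4 probe sets passed. Every AA culture lay under every control culture. Both Osmr, the oncostatin M receptor, and Il6st, its partner gp130, were lower, at -0.75 (adjusted p = 0.00622) and -0.67 (adjusted p = 0.00802). The dimmer probe sets of both were higher by their means and did not pass. Ifngr2, a chain of the interferon gamma receptor, was higher at 0.73 (adjusted p = 0.00965), while its other probe set was at 0.11 (adjusted p = 0.83). Without replicate 2, adjusted p was 0.0565 for Osmr and 0.0699 for Il6st, and Osmr passed in 3, Il6st in 7 and Ifngr2 in 4 of the 9 fits.

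Of 19 interferon-stimulated genes measured, 2 fell and none rose, with a median log2 ratio of -0.32. Gbp2, an interferon-induced GTPase, had signals of 41.0, 47.1 and 50.9 in AA cultures, against 72.9, 105 and 116 in control cultures (log2 ratio -1.05, adjusted p = 0.00895 by limma). Irgm1, another such GTPase, had a log2 ratio of -0.56 (adjusted p = 0.0139). Neither passed without replicate 2 (adjusted p = 0.0671 and 0.102), and they passed in 4 and 3 of the 9 fits that left out arrays. Cxcl10, itself an interferon-stimulated chemokine, had the values given above and did not pass.

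Of 14 measured factors that support blood cell precursors beside Cxcl12, 4 fell and 1 rose, with a median log2 ratio of -0.34. Il7, the growth factor of lymphoid precursors, had signals of 67.3, 86.0 and 87.0 in AA cultures, against 145, 230 and 208 in control cultures (log2 ratio -1.24, SE 0.12, adjusted p = 0.00151 by limma). Its groups lay far apart, and its other, dimmer probe set was at -1.02 and did not pass (adjusted p = 0.309). Jag1, a Notch ligand, was lower at -0.60 (adjusted p = 0.0160) on 1 of its 3 probe sets, and passed in 4 of the 9 fits that left out arrays. Kitl, the stem cell factor, and Vcam1, an adhesion molecule for blood cells, were lower at -0.62 and -0.55 (adjusted p = 0.0187 and 0.0151), but their groups overlapped and neither passed with the block left out (adjusted p = 0.303 and 0.275). No other probe set of Kitl or Vcam1 passed. Lepr, the leptin receptor that marks marrow stroma, was higher, with signals of 43.0, 26.0 and 27.0 in AA cultures, against 7.36, 9.24 and 7.10 in control cultures (log2 ratio 1.95, adjusted p = 0.0161). It did not pass without replicate 1 (adjusted p = 0.0639) or replicate 2 (adjusted p = 0.0510), and passed in 6 of the 9 fits.

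Of 10 proteases that can cut or shed chemokines, 1 rose and 1 fell. Mmp13, the collagenase of the osteoblast lineage, had signals of 39.6, 51.2 and 45.9 in AA cultures, against 158, 153 and 158 in control cultures (log2 ratio -1.77, SE 0.15, adjusted p = 0.000658 by limma). Mmp14, a membrane-bound collagenase, was higher at 0.41 (adjusted p = 0.0131) and on all 3 of its probe sets, but its brightest did not pass after median centring (adjusted p = 0.133) or without replicate 2 (adjusted p = 0.0755). Adam10 and Adam17, the shedding proteases of Cx3cl1, did not pass. Over these 8 lists 17 of 133 measured genes passed by their brightest probe set, 5 higher and 12 lower. Of all 18193 genes, 4.06% were higher and 3.83% lower. Ackr4, Csf1, Il7 and Mmp13 were the 4 of the 17 that passed in each of the 9 fits that left out arrays.

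Markers of other cells that make or answer chemokines were mostly dim. Of 11 macrophage markers 1 passed: Csf1r, the receptor of Csf1, with signals of 104, 74.7 and 83.6 in AA cultures, against 23.9, 24.7 and 25.0 in control cultures (log2 ratio 1.81, adjusted p = 0.00168 by limma), with 2 of its 3 probe sets passing. The summed signal of the list ran from 510 to 564 on the AA arrays and from 441 to 545 on the control arrays. Of the 11, Csf1r, Lyz2 and Cd14 lay above the median signal and 8 were dim. Lyz2, a lysozyme, had signals of 344, 332 and 296 in AA cultures, against 336, 382 and 416 in control cultures (adjusted p = 0.496). Cd14, a lipopolysaccharide co-receptor, had signals of 92.2, 73.7 and 83.9 in AA cultures, against 53.9, 70.7 and 62.1 in control cultures (adjusted p = 0.238). Of the dim markers, Cd68 had signals of 10.2, 15.9 and 13.2 in AA cultures, against 9.51, 13.8 and 14.9 in control cultures. Fcgr1 reached 10.9 in AA replicate 3. Ptprc, Adgre1, Itgam, Tyrobp, Aif1 and Mrc1 had signals of at most 8.54 on any array. Of 8 endothelial markers 1 passed, Vwf, which was lower with signals under 8 on every array (adjusted p = 0.0441) and passed in 0 of the 9 fits that left out arrays, and none of 8 T cell and 5 adipocyte markers passed. The summed signals were 25.9 to 44.4 on the AA arrays and 40.2 to 41.7 on the control arrays for the endothelial list. They were 125 to 189 on the AA arrays and 180 to 224 on the control arrays for the T cell list, and 11.1 to 14.9 on the AA arrays and 7.06 to 10.9 on the control arrays for the adipocyte list. Most of the T cell sum was Zap70, the only marker of that list above the median signal. Zap70 had signals of 114.5, 169.9 and 97.6 in AA cultures, against 151, 181 and 181 in control cultures (adjusted p = 0.214 by limma). The cultures held a single clonal line, so these lists name markers and not cells known to be present. How these markers relate to the chemokine values was not tested.

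**Figure D4:**
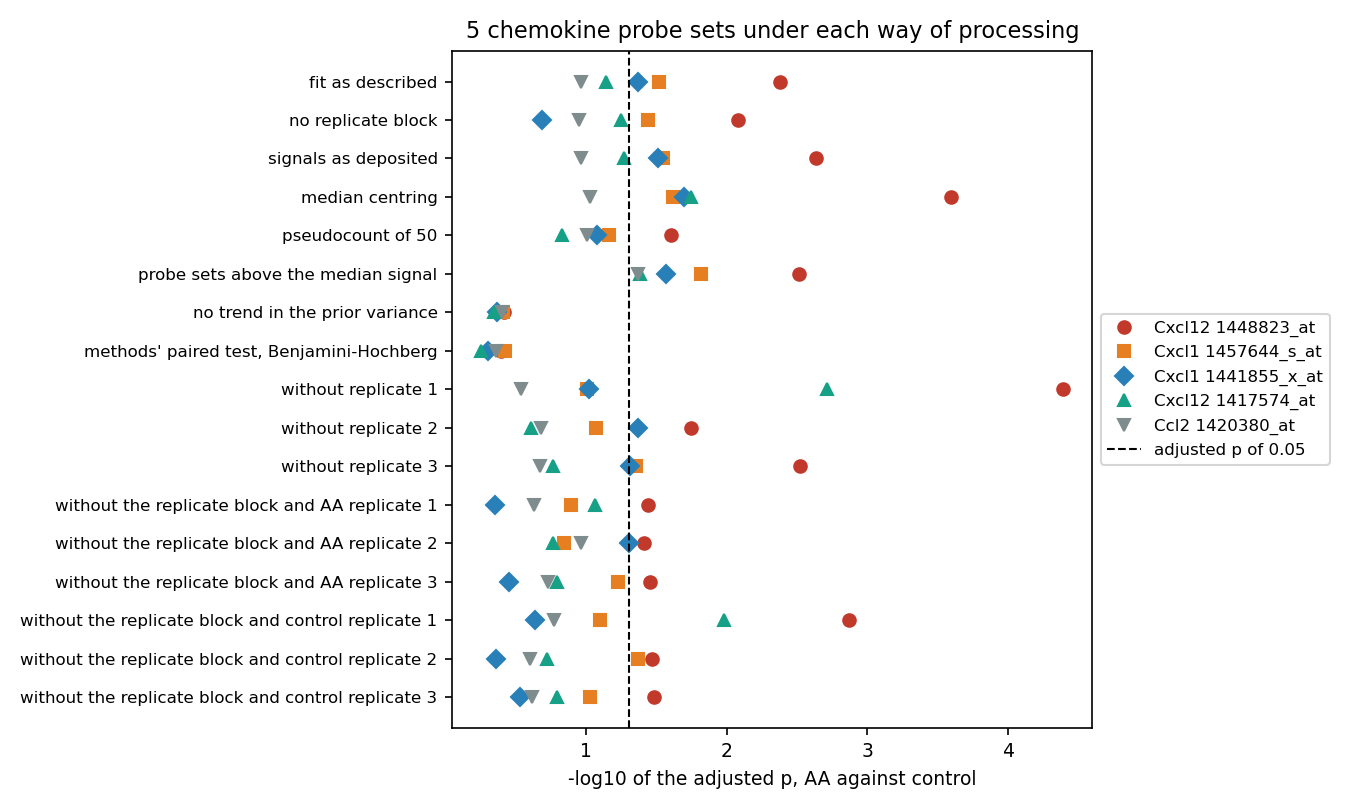
Minus log10 of the adjusted p, AA against control, for 5 chemokine probe sets under each way of processing, with a dashed line at an adjusted p of 0.05. The Cxcl12 probe set 1448823_at lies right of the line in all 9 fits that leave out arrays and left of it with no trend in the prior variance and in the methods' paired test.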

How the data were processed

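Total RNA of 3 AA and 3 control cultures was read on 6 arrays. The deposited values are linear intensity values (MAS5, no version, per the submitters' processing notes), scaled by the authors within each array and without detection calls. The methods describe quantile normalization and GC-RMA for the paper's own analysis, which these values do not carry. The 64 control probe sets were left out, and log2 values of the other 45037 were quantile-normalized and fitted with limma 3.58.1 in R 4.3.3 (condition plus replicate number, which the methods' paired tests call for, and a prior variance that follows the signal), with 2 residual degrees of freedom and 6.18 from the prior. By the platform annotation held by GEO, 34945 probe sets carry 1 gene symbol, 932 carry several and 9160 carry none, and RefSeq's GRCm38.p6 table changed 0 symbols. A gene is its brightest probe set. The fit was tested on simulated data.

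The members and lists were chosen with earlier results of these data known. Named are all members, up to 4 genes per list and direction that passed, and for each member probe set that passed the 3 genes closest to it by Pearson's r. List genes with no probe set of their own were left out. Alternatives were no block, a pseudocount of 50, median centring, no normalization, filters on dim probe sets, no trend, the methods' test and thresholds (p under 0.01, fold of at least 1.5), averaging the probe sets of a gene, and leaving out arrays. The number of arrays, 3 per group, limits the precision.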

Additional observations from a re-analysis of the deposited data

How the results depend on the processing

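Across probe sets brighter than the median, deviations from the group means correlated at 0.182, 0.0251 and 0.0921 between same-numbered AA and control arrays. Between arrays of different numbers the correlations ran from -0.143 to 0.0513. With so few arrays these values do not settle whether cultures of the same number belong together. Without the replicate block 1089 passed upward and 1039 downward in AA, against 1219 and 1124 with it, and of the chemokine probe sets 1 was higher and 1 lower, Cxcl1 1441855_x_at being lost (adjusted p = 0.208 from limma), while 5 list genes were higher and 11 lower. With a pseudocount of 50, 787 and 651 probe sets passed, with 0 chemokine probe sets higher and 1 lower. With no trend in the prior variance and in the methods' paired test after Benjamini-Hochberg, 0 passed in either direction over all probe sets, the members and the lists, while at an unadjusted p under 0.05 limma without the trend had 2587 higher and 2616 lower (2 and 4 of the members) and the methods' paired test 2612 and 2827 (2 and 2 of the members). With the methods' paired test and thresholds 363 probe sets were higher and 345 lower, with 0 and 0 members and 0 and 5 list genes. Those thresholds on the limma fit gave 4 members lower (Ccl2, Cxcl1 1441855_x_at and both bright Cxcl12 probe sets), and so did testing probe sets over the median of signal alone. In the upper quartile of signal 0 members were higher, Cxcl1 1457644_s_at not being among the probe sets tested. Leaving out arrays gave 380 to 1169 probe sets higher and 339 to 994 lower, 0 to 1 members higher and 1 to 2 lower, and 2 to 5 list genes higher and 3 to 12 lower. The lowest counts came without AA replicate 2 and without the block, and with the block 556 and 410 passed without replicate 2. Over the mean of its probe sets Cxcl1 turned direction, to a log2 fold change of 0.45 (adjusted p = 0.541). Of the calls, 52% were higher and 48% lower, against 39.5% and 60.5% after median centring. The causes of these differences were not tested. Signals under the array medians limit what can be said of 11 of the 18 probe sets.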
